A study of Apis mellifera with 5 samples.

Results

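The hypopharyngeal glands (HGs) of worker bees on day 16 after emergence were compared with those on day 9, the ages at which a worker would usually be processing nectar and feeding brood. The comparison took in every unigene, a cluster of expressed sequences standing for 1 transcript, with a read in either library. That gave 18950 unigenes of the 20522 read at any age, with 17995 read on day 16 and 17065 on day 9. All bees were full-sister workers of Apis mellifera carnica Pollmann. They came from 1 colony that the study selected, with a queen inseminated with the sperm of 1 isolated drone. Each library came from the pooled HGs of 30 bees, and there was 1 library for each of 5 ages (days 3, 6, 9, 12 and 16). The labels give the age and not the task of the bees, so age and task cannot be told apart, and differences between ages come without replicates.

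The HGs are paired glands of the head. In nurse bees they secrete the protein of royal jelly, above all the major royal jelly proteins (MRJPs), which belong to the same family as the insect yellow proteins. In older workers the glands shrink and turn to enzymes that split and oxidise the sugars of nectar. A secretory gland of this kind depends on ribosomes, which build its protein.

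The level of a unigene is given as reads that match it alone (unique reads) and as RPKM, the unique reads per kilobase of unigene and per 1000000 unique reads. The day 16 library held 1.82 M unique reads and the day 9 library 1.21 M (M standing for 1000000), and the libraries of days 3, 6 and 12 held between 1.34 M and 1.70 M. By the paper's counts the day 16 and day 9 libraries were close in clean reads and in mapped reads. A larger part of the day 9 reads matched several positions and so fell outside the unique reads. Ratios and calls depend on scaling to unique reads, and scaling to all mapped reads was not tested. Values at the 5 ages are listed by age, day 3 first. Ratios are log2 of the day 16 RPKM over the day 9 RPKM, and the 95% interval in brackets (exact, Clopper-Pearson) takes in counting error alone. Calls rest on the two-sided test of Audic and Claverie with a false discovery rate (FDR) up to 0.001 and a change of at least 2-fold, that is 1 on the log2 scale. The test compares the reads of these 2 libraries and not the ages. In pooled glands, fewer cells of a type and less RNA per cell cannot be told apart.

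On day 16, 291 unigenes were called higher than on day 9 (1.54% of those tested) and 274 were called lower (1.45%). The 291 higher unigenes took 18.3% of the unique reads on day 16, against 2.77% on day 9. The 274 lower unigenes took 11.7% on day 16, against 28.3% on day 9. A few unigenes carried much of both shifts. TC20807 and TC12373, which have no name in the sources used here, took 8.89% of the day 16 reads, against 0.274% of the day 9 reads, and the other 289 higher unigenes took 9.41% on day 16, against 2.50% on day 9. TC24109 (mrjp2), TC13222 (mrjp7) and the unnamed TC22404 and TC12375 took 8.91% of the day 16 reads, against 20.4% of the day 9 reads.

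**Figure D1:**
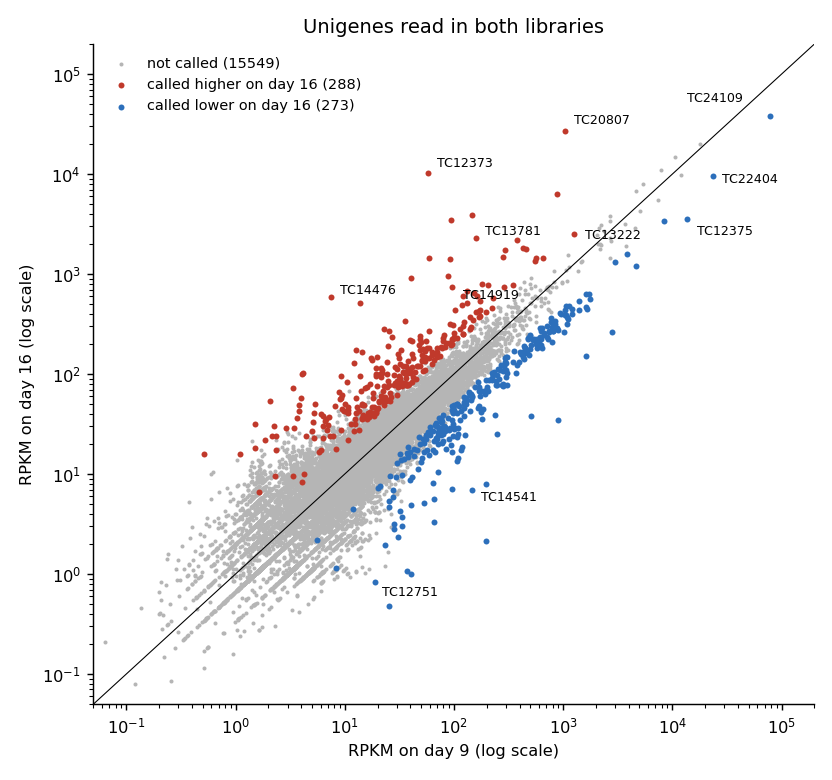
Each point is a unigene read in both libraries, with its RPKM on day 16 (vertical, log scale) against its RPKM on day 9 (horizontal, log scale), and the line marks equal levels. Red points were called higher on day 16 (288 of the 291, since 3 had no read on day 9) and blue points were called lower (273 of the 274). TC20807 and TC12373 stand far above the line at high levels, and TC24109, TC22404, TC12375 and TC13222 lie below it.

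The changes were placed differently along the 5 ages. Of the 291 unigenes called higher, 262 had their highest RPKM of all 5 ages on day 16 and 22 had it on day 12. In 235 of them the day 12 level lay between those of days 9 and 16. The median RPKM of the 291 was 20.5, 25.8, 28.9, 53.6 and 98.7 at the 5 ages. Of the 274 called lower, 233 were lowest on day 16, 177 were highest on day 9, and days 3, 6 and 12 were the highest for 33, 51 and 13 of them. Their median RPKM was 111, 134, 145, 97.5 and 50.0 at these ages. Days 9 and 16 are part of these orders, and the call itself keeps a higher unigene from being highest on day 9. Called unigenes were also longer than the rest, with a median length of 1333 bases for the higher and 803.5 bases for the lower, beside 616.5 bases over all tested, and the part that read depth plays in this was not tested.

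Names cover the 2 directions unevenly. The deposited annotation describes unigenes whose day 3 RPKM was below 10, so a unigene that starts low is far more likely to carry a name. A name stood in the annotation for 72 of the 291 higher unigenes and for 13 of the 274 lower ones. Among the 3660 named unigenes tested, the share called was 1.97% higher and 0.355% lower. Names are mostly best matches to proteins of other species, and the paper names 157 of the unigenes tested, of which 147 have no name in the annotation. Calls took in 10 of these 157 on the higher side and 78 on the lower. With either source, 80 higher and 89 lower unigenes carried a name.

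The MRJP unigenes show the glands' main product. The 32 unigenes named as royal jelly proteins took 6.60% of the unique reads on day 16 (95% interval 6.57% to 6.64%), against 13.8% on day 9 (13.8% to 13.9%). The share was 2.74%, 5.85%, 13.8%, 14.4% and 6.60% at the 5 ages, so that day 16 stood between days 6 and 9. MRJP copies are alike in sequence, and reads that match several unigenes are not in these counts. Of the 31 members read in either library, 7 (22.6%) were called lower and 1 (3.23%) higher, beside 1.45% and 1.54% of all unigenes tested. Of the 28 that the annotation names, 5 (17.9%) were lower and 1 (3.57%) higher, beside 0.355% and 1.97% of all named unigenes. From these libraries the paper picked TC24109 and TC13222 for a peak on day 9, and TC12751 and TC22893 as expressed on day 9 alone. These counts are therefore not independent evidence of direction. Over the 18 members with at least 10 reads in the 2 libraries together, the median log2 ratio of RPKM plus 0.1 was -1.59, beside -0.04 over the 12539 unigenes with as many reads, and 15 of the 18 lay below 0.

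**Figure D2:**
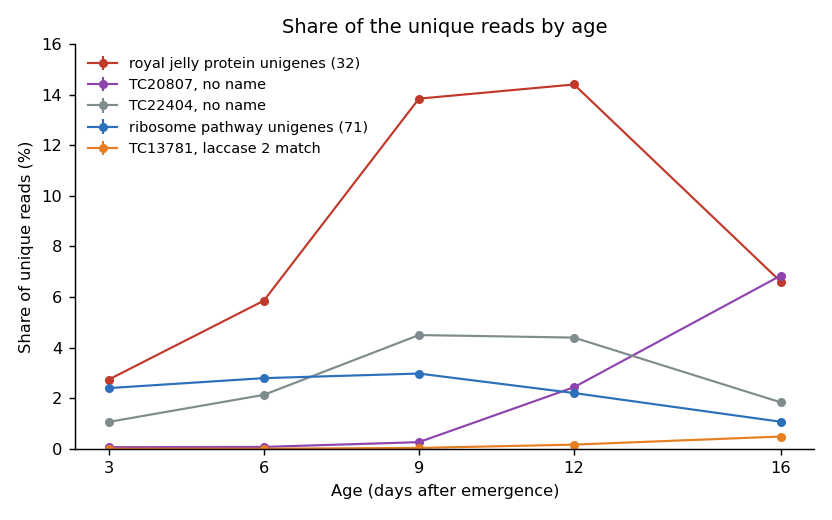
The share of a library's unique reads (vertical, percent) by age in days (horizontal) for the 32 royal jelly protein unigenes, the 71 ribosome pathway unigenes and 3 single unigenes, with 95% exact intervals smaller than the points. The royal jelly protein share was 6.60% on day 16 and 13.8% on day 9, and TC20807 took 6.85% on day 16, against 0.263% on day 9.

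The unigene of mrjp2, TC24109, had the highest RPKM of both libraries, though on day 16 the unnamed TC20807 had more reads (124345). TC24109 had 108872 reads on day 16, against 150050 on day 9, and its RPKM was 37831.5 on day 16, against 78399.7 on day 9. The log2 ratio was -1.05 (interval -1.06 to -1.04), close to the threshold, and with the libraries scaled by TMM factors it was -0.98 and no longer called. MRJP2 is one of the abundant proteins of royal jelly. A second mrjp2 unigene, BP540149, had 1193 reads on day 16, against 1469 on day 9, with a log2 ratio of -0.89 that missed the threshold.

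The mrjp7 unigene TC13222 had 3067, 5978, 15249, 18677 and 9119 reads at the 5 ages, so that day 12 was its highest and day 16 fell below day 9. Its RPKM was 3361.74 on day 16, against 8452.75 on day 9, a log2 ratio of -1.33 (-1.37 to -1.29). The paper's quantitative PCR, scaled to beta-actin, went the other way, with a higher level on day 16 than on day 9. In that PCR every assayed unigene but TC14045 was higher on day 16 than on day 9, so this direction is not particular to TC13222. The primers that the study designed for this unigene are shown because they are the study's own PCR assay of this transcript. They are printed 5′ to 3′ in lower case with no base singled out.
TC13222 forward: agattgtgggttttggactcag
TC13222 reverse: cttccctgttctgtggtggtat

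Rarer MRJP unigenes fell more steeply. TC12751, named as MRJP4, a royal jelly protein, had 3 reads on day 16, against 45 on day 9, a log2 ratio of -4.50 (-6.83 to -2.86). DB779787 had 3 reads on day 16, against 20 on day 9. DB757266, matching MRJP3, had 4 reads on day 16, against 22 on day 9. Each of these unigenes had its highest count on day 9, above day 12. TC22893, named as MRJP3, had 4 reads on day 16, against 19 on day 9, and its call was lost with TMM scaling. TC22243, matching the MRJP2 precursor, had 10 reads on day 16, against 30 on day 9. Without the abundant TC24109, TC13222 and BP540149, the other 28 members summed to 680 reads on day 16, against 342 on day 9, a ratio of 1.32 after scaling to the totals. TC12355, described next, sets that direction: without it as well, 27 members summed to 155 reads on day 16, against 297 on day 9, a ratio of 0.347.

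MRJP9 went the other way. TC12355, matching MRJP9, a member also known from bee venom, had 3, 11, 45, 213 and 525 reads at the 5 ages. Its RPKM was 138 on day 16, against 17.8 on day 9, and the log2 ratio was 2.96 (2.52 to 3.43). TC12413, matching MRJP8, had 38 reads on day 16, against 12 on day 9, and was not called. TC16133, matching a protein named as specific to the HG, fell with the jelly proteins: it had 7 reads on day 16, against 42 on day 9, a log2 ratio of -3.17 (-4.57 to -2.01).

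The yellow family, to which the MRJPs are related, was mostly lower on day 16. Of 7 unigenes, 5 were called lower, beside 1.45% of all unigenes, and none higher. From these same libraries the paper named TC14541, DB739842 and BI514641 as expressed on day 9 alone, and TC12331 as expressed on day 16. The count is therefore not independent evidence of direction. Of the 3 unigenes that the annotation names, 2 were called lower, beside 0.355% of all named unigenes. TC14541, named as yellow-e2 or yellow-e3, had 23, 29, 99, 25 and 7 reads at the 5 ages, a log2 ratio of -4.41 (-5.76 to -3.31). TC12417, yellow-e3, had 36 reads on day 16, against 92 on day 9, a log2 ratio of -1.94 (-2.54 to -1.37). The high point of these unigenes was day 9. DB739842 had 1 read on day 16, against 23 on day 9. DB755358, similar to yellow-e2, had 4 reads on day 16, against 20 on day 9. BI514641 had none on day 16, against 11 on day 9, which is 5.51-fold lower on day 16 with a floor of 3 reads for a count of 0. That floor takes the other count as exact, and the upper end of the exact interval, which does not, was -1.92 on the log2 scale. The exception in direction was TC12331, yellow-h, with 21 reads on day 16, against 1 on day 9, which did not pass the test.

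The ribosomal protein unigenes that the study listed were lower on day 16 as a block. Of the 71 unigenes of the ribosome pathway that the study listed, 69 were called lower and none higher, beside 1.45% of all unigenes tested. The study chose this list on these libraries, this pair of ages among them, so the count describes the list and is not independent evidence of its direction. The study's threshold of 2-fold also bears on the range and median of the ratios. These 69 are 25.2% of all unigenes called lower. The log2 ratios ran between -2.35 and -1.05 with a median of -1.45, a level on day 16 of 0.365 times that on day 9. All 71 were lowest on day 16 of the 5 ages, 49 were highest on day 9 and 18 on day 6. Together they took 1.07% of the unique reads on day 16, against 2.97% on day 9, and 2.40%, 2.79% and 2.20% on days 3, 6 and 12.

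Single members show the size of these differences. TC12663, the S6e protein of the small subunit, a target of the TOR pathway, had 984 reads on day 16, against 1681 on day 9, a log2 ratio of -1.36 (-1.48 to -1.25). TC18608, the acidic stalk protein LP1, had 295 reads on day 16, against 745 on day 9, a log2 ratio of -1.92 (-2.12 to -1.73). TC12776, L13e, had 247 reads on day 16, against 340 on day 9, and its log2 ratio of -1.05 fell short of the threshold with TMM scaling. With that scaling, under which 1.76% of all unigenes were called higher and 1.31% lower, 65 of the 71 were called lower. Of the other 9 TOR pathway unigenes that the study listed, among them mTOR (TC20981, 127 reads on day 16, against 72 on day 9, log2 ratio 0.23) and AKT (TC15907, 251 reads on day 16, against 192 on day 9, log2 ratio -0.20), none was called in either direction at these thresholds.

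Other lists for making and exporting protein held no called member, beside 1.97% of all named unigenes called higher and 0.355% lower. Their named unigenes are those with low levels on day 3. Among them were 11 cytosolic ribosomal protein unigenes of the annotation, of which only 2 had at least 10 reads, both with ratios below 0. The 12 mitochondrial ones had a median log2 ratio of -0.26 over 6, with 3 above 0 and 3 below. The 20 ribosome biogenesis unigenes had a median log2 ratio of -0.51 over the 16 with enough reads, and the 30 translation factor unigenes had -0.37 over 11. The 34 unigenes of the secretory pathway had a median of -0.17 over 20, which turned to 0.20 over all 34. Over the 1800 named unigenes with at least 10 reads the median was 0.14.

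**Figure D3:**
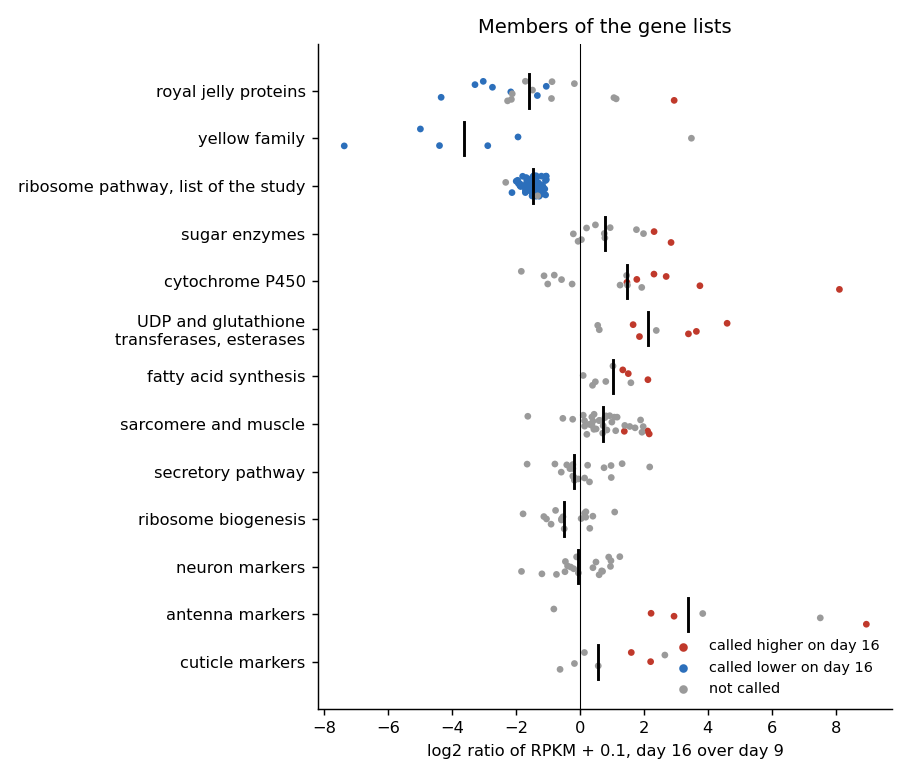
Each point is a list member with at least 10 reads over the 2 libraries, placed at its log2 ratio of RPKM plus 0.1, day 16 over day 9 (horizontal), with the list's median as a bar. Called members are red (higher on day 16) or blue (lower), and the ratio of a member with no read in 1 library depends on the added 0.1. The royal jelly and ribosome pathway medians were -1.59 and -1.45, and those of cytochrome P450 and of the transferases and esterases were 1.47 and 2.13.

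Among named unigenes read on both days, with 40 reads or more, the highest ratio was that of TC14476, matching the venom acid phosphatase precursor, an enzyme of bee venom. It had 3, 3, 17, 182 and 2022 reads at the 5 ages. The RPKM was 587 on day 16, against 7.42 on day 9, a 79.1-fold difference and a log2 ratio of 6.31 (5.62 to 7.09). It was the only unigene under an RPKM of 10 on day 9 that reached 500 on day 16. TC18058, matching a testicular acid phosphatase-like protein, had 153 reads on day 16, against 7 on day 9, a log2 ratio of 3.86 (2.78 to 5.20).

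TC13781, matching laccase 2, a copper oxidase that tans insect cuticle, was the most abundant named unigene among the higher calls. It had 25, 47, 407, 2207 and 8797 reads at the 5 ages. Its RPKM was 2285 on day 16, against 159 on day 9, a log2 ratio of 3.85 (3.70 to 3.99). TC14919, matching plasma kallikrein, a serine protease, had 2203 reads on day 16, against 189 on day 9, a log2 ratio of 2.95 (2.74 to 3.18). It was the 1 called member of 26 serine protease and inhibitor unigenes (3.85%, beside 1.97% of all named unigenes). TC20544, matching hyaluronidase, which cleaves hyaluronan and is also a venom enzyme, had 551 reads on day 16, against 27 on day 9, a log2 ratio of 3.76 (3.21 to 4.38). None of these matches shows what the bee protein does in the gland.

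**Figure D4:**
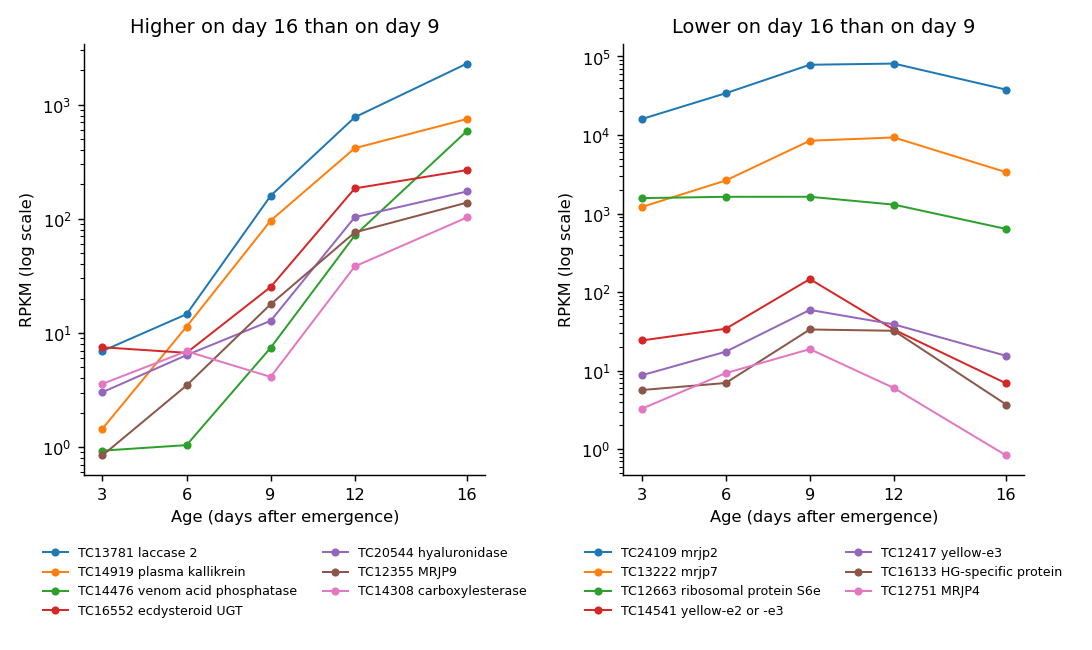
RPKM (vertical, log scale) by age in days (horizontal) of 7 unigenes called higher on day 16 than on day 9 (left) and 7 called lower (right), with 1 library per age. Those on the left were at their highest on day 16, laccase 2 at 2285. Those on the right had passed their highest level by day 16, TC14541 falling to 6.88 on day 16, against 146 on day 9.

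The sugar enzymes were searched for because they belong to honey making. Of 23 unigenes in the annotation, most of them matches to glucose dehydrogenase, which oxidises glucose, 2 (8.70%) were called higher and none lower, and the median log2 ratio over 12 was 0.77. The annotation favours higher calls, with 1.97% of its named unigenes called higher and 0.355% lower. TC13216 had 347 reads on day 16, against 46 on day 9, a log2 ratio of 2.33 (1.88 to 2.80). NP9552746 had 45 reads on day 16, against 4 on day 9, a log2 ratio of 2.90 (1.45 to 4.84). Each is a match to glucose dehydrogenase. TC21807, a further match, had 44 reads on day 16, against 7 on day 9, and NP9553382, matching trehalase, had 52 reads on day 16, against 10 on day 9, and both passed only with TMM scaling.

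None of the 4 unigenes named as alpha-amylase, glucose oxidase or alpha-glucosidase, enzymes that make honey from nectar, passed the test. DB772014, named as alpha-amylase, which splits starch, had no read on days 3, 6 and 9, 2 on day 12 and 18 on day 16. Against a floor of 3 reads it was 3.99-fold higher on day 16, and the lower end of its exact interval was 1.55 on the log2 scale. The difference had an FDR of 0.0037 in Audic and Claverie's test adjusted by Benjamini and Hochberg, above the threshold. BP539841, named as glucose oxidase, which makes gluconic acid and hydrogen peroxide in honey, had 81, 61, 66, 272 and 77 reads at the 5 ages, so its high count was that of day 12. The paper gives the same identifier to a phospholipase as well, so the name is uncertain. TC19959 and TC12359, the alpha-glucosidase unigenes, had 3 and 13 reads on day 16, against 0 and 5 on day 9. Their counts were too low to show a difference. Abundant unnamed unigenes may hold other copies, which the names used here cannot show.

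Calls among enzymes that modify foreign and hormonal molecules were all in the same direction. Cytochromes P450 are oxidases of toxins, hormones and pheromones. Of 27 P450 unigenes, 6 (22.2%) were called higher and none lower, beside 1.97% and 0.355% of all named unigenes, and the median log2 ratio was 1.47 over 16. NP9545948, matching P450 6a14, had 1, 3, 0, 6 and 74 reads at the 5 ages. With the day 9 count set at the floor of 3 reads it was 16.4-fold higher on day 16. The lower end of the exact interval was 3.70 on the log2 scale. TC16088, matching the bee enzyme 6AS5, had 197 reads on day 16, against 20 on day 9, a log2 ratio of 2.71 (2.05 to 3.45). TC19658, matching 9e2, had 219 reads on day 16, against 29 on day 9. TC12392, also matching 6AS5, had 259 reads on day 16, against 50 on day 9. These 4 are given because they are among the 6 called, so their shared direction follows from that choice. Of the 16 P450 unigenes with at least 10 reads, 10 lay above 0 and 6 below.

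UDP-glycosyltransferases attach sugars to small molecules, and carboxylesterases split esters. Of 16 unigenes of these enzymes and of glutathione transferases, 5 (31.2%) were called higher, beside 1.97% of all named unigenes, and none lower, and all 8 with at least 10 reads lay above 0 with a median log2 ratio of 2.13. TC14308, matching a carboxylesterase, had 337 reads on day 16, against 9 on day 9, a log2 ratio of 4.64 (3.70 to 5.78). TC16552, matching an ecdysteroid UDP-glucosyltransferase, had 20, 16, 48, 390 and 762 reads at the 5 ages, a log2 ratio of 3.40 (2.98 to 3.85). TC17047, similar to UDP-glycosyltransferase 35b, had 77 reads on day 16, against 4 on day 9. TC14495 and TC13441 were higher by 1.88 and 1.67 on the log2 scale.

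Calls among lipid enzymes were also higher. Of 16 fatty acid synthesis and elongation unigenes 3 (18.8%) were called higher, beside 1.97% of all named unigenes, and none lower, and all 9 with enough reads lay above 0. TC14207, matching a fatty acyl-CoA reductase, which makes fatty alcohols, had 387 reads on day 16, against 90 on day 9, a log2 ratio of 1.52 (1.18 to 1.86). TC20045, a second reductase match, had 93 reads on day 16, against 14 on day 9. TC14076, matching an elongase of very long fatty acids, had 134 reads on day 16, against 35 on day 9. NP9553432, matching scavenger receptor class B member 1, a receptor for lipoprotein lipid, had 47 reads on day 16, against 1 on day 9, a log2 ratio of 4.97 (2.42 to 10.30). TC22318, matching alpha-tocopherol transfer protein-like, had 328 reads on day 16, against 19 on day 9, a log2 ratio of 3.52 (2.85 to 4.27).

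TC14824, matching a circadian clock-controlled protein, had 8, 8, 10, 92 and 375 reads at the 5 ages. Its log2 ratio of 4.64 (3.75 to 5.71) came after those of TC14476 and NP9553432 among the named unigenes read on both days. Of 113 transporter unigenes, 2 were called, both higher, and this 1.77% lies near the 1.97% of all named unigenes. They were TC23936, matching a hexuronate transporter, with 90 reads on day 16, against 5 on day 9, and TC12374, matching the dopamine transporter, with 116 reads on day 16, against 12 on day 9. TC13851, matching 10-formyltetrahydrofolate dehydrogenase, an enzyme of folate metabolism, had 117 reads on day 16, against 7 on day 9, but 37 on day 3, and so did not climb from day 3 on.

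**Figure D5:**
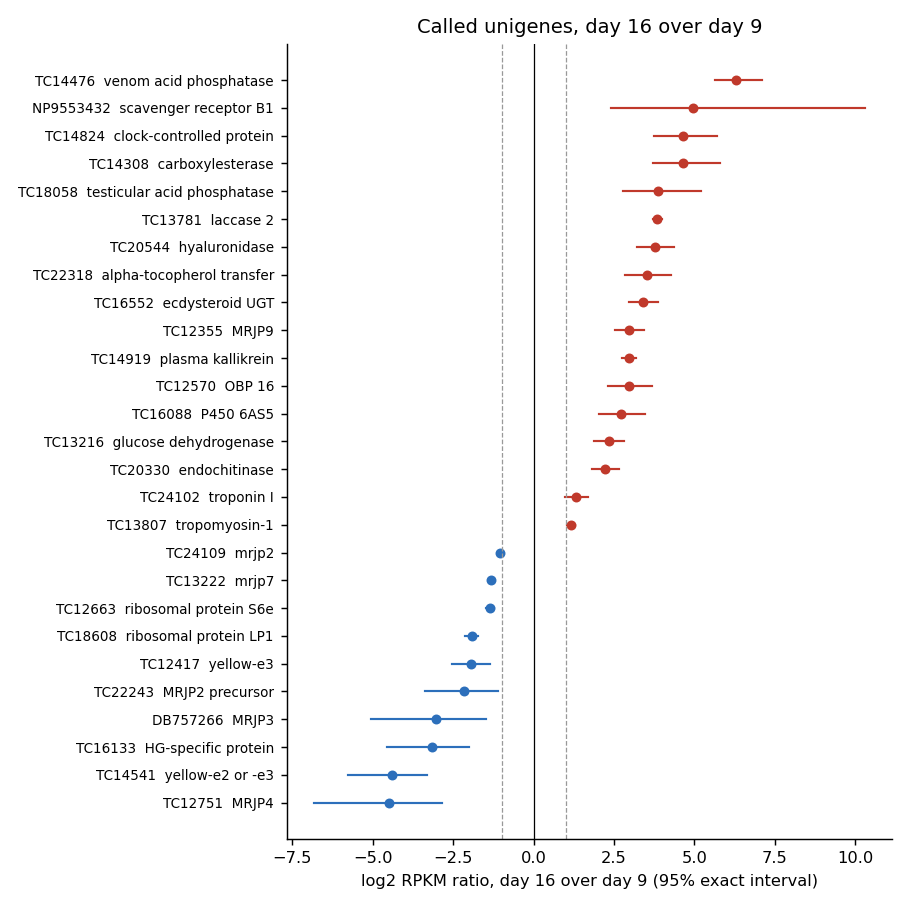
The log2 ratio of RPKM, day 16 over day 9 (horizontal), of 27 called unigenes, with 95% exact intervals for counting error alone as lines and dashes at the threshold of 1 in each direction. The ratios run from 6.31 for the venom acid phosphatase match to -4.50 for MRJP4, and mrjp2 stands at the threshold with -1.05.

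Insulin-like growth factor-binding proteins carry growth factors in vertebrates. The 3 unigenes with this name did not move as one. TC21952 was called higher, with 731 reads on day 16, against 239 on day 9 (log2 ratio 1.02). TC14287 was called lower, with 63 reads on day 16, against 102 on day 9 (log2 ratio -1.28). NP9547607 had no read on day 16, against 3 on day 9. The R group of 24 unigenes, which the study drew from these libraries, held 1 higher and 1 lower call. The study chose that group as the reverse of a rise and fall with a peak on day 9. Each of these 2 calls is 4.17% of the group, beside 1.54% higher and 1.45% lower of all unigenes tested. TC15513, matching an ABC transporter, had 371 reads on day 16, against 87 on day 9, a log2 ratio of 1.50 (1.16 to 1.86). TC15827, named as an ionotropic glutamate receptor, had 338, 133, 48, 10 and 27 reads at the 5 ages, and its call as lower was lost with TMM scaling. In the paper's quantitative PCR its level was higher on day 16 than on day 9, like that of nearly every unigene assayed. TC19313, matching a subunit of succinate dehydrogenase, was the 1 called member of 17 oxidative phosphorylation unigenes, with 44 reads on day 16, against 81 on day 9. That is 5.88% called lower, beside 0.355% of all named unigenes.

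Muscle is not part of the secretory tissue of the gland, and most muscle unigenes had higher values on day 16. Of 44 sarcomere unigenes in the annotation 3 (6.82%) were called higher, beside 1.97% of all named unigenes, and none lower, and 32 of the 35 with enough reads lay above 0 with a median log2 ratio of 0.73. The study drew its M group of 29 unigenes, most of them muscle proteins, from these libraries as matching a rise and fall with a peak on day 9. Of the 29, 8 were called higher, beside 1.54% of all unigenes, and the 2 called lower were mrjp2 and mrjp7. With 23 of the 29 above 0, most stood higher on day 16 than on day 9. TC13807, tropomyosin-1, had 1858 reads on day 16, against 553 on day 9, a log2 ratio of 1.16 (1.02 to 1.30). TC24102, troponin I, had 310 reads on day 16, against 82 on day 9, a log2 ratio of 1.33 (0.97 to 1.70). Tropomyosin and troponin sit on the thin filament. TC14580, paramyosin of the thick filament, had 5172 reads on day 16, against 1907 on day 9, and its log2 ratio of 0.85 missed the threshold. TC12842, muscle-specific protein 20, had 575 reads on day 16, against 158 on day 9, a log2 ratio of 1.28 (1.02 to 1.54), and its level was higher still on day 12 with an RPKM of 234, against 207 on day 16. The paper's quantitative PCR, scaled to beta-actin, instead put the level of TC12842 highest on day 16, with day 12 above day 9. The study's primers for TC12842 are printed 5′ to 3′ as the assay that follows this muscle transcript.
TC12842 forward: tagtcagcgtcatcgttcaa
TC12842 reverse: ctcattctcttgttccttgttgc

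Markers of other head tissues were not all in step with muscle. The 44 neuron marker unigenes held no called member and had a median log2 ratio of -0.05 over 19, or 0.02 with TMM scaling. Their summed share was 0.0250% of the reads on day 16, against 0.0229% on day 9. Of 21 antenna marker unigenes 3 (14.3%) were called higher, beside 1.97% of all named unigenes, all odorant-binding proteins, small carriers of hydrophobic molecules that are also made outside the antenna. TC12570, odorant-binding protein 16, had 244 reads on day 16, against 21 on day 9, a log2 ratio of 2.95 (2.31 to 3.67). TC13645, odorant-binding protein 4, had 113 reads on day 16, against 16 on day 9. DB764488, odorant-binding protein 20, had 46 reads on day 16, against none on day 9. With the day 9 count set at the floor of 3 reads it was 10.2-fold higher on day 16. The lower end of the exact interval was 2.99 on the log2 scale. None of the 7 unigenes named as odorant receptors had more than 6 reads on either day. Over the 6 antenna markers with at least 10 reads the median log2 ratio was 3.39, or 2.59 with the 2 unread on day 9 set against 3 reads.

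Of 26 cuticle unigenes 2 (7.69%) were called higher, beside 1.97% of all named unigenes. TC20330, matching an endochitinase, had 395 reads on day 16, against 56 on day 9, and TC15457, flexible cuticle protein 12, had 156 reads on day 16, against 34 on day 9. TC15331, hemocytin of blood cells, had 186 reads on day 16, against 61 on day 9 (log2 ratio 1.02). The 9 fat body markers summed to 71 reads on day 16, against 24 on day 9, which is 0.00391% of the reads on day 16, against 0.00199% on day 9. No fat body marker was called. The most read was TC20123, matching a desaturase, with 46 reads on day 16, against 10 on day 9 (log2 ratio 1.61). Vitellogenin (TC23352) had no read on day 16, against 2 on day 9, and hexamerin 70b (TC12341) had 12 reads on day 16, against 5 on day 9. The 2 photoreceptor unigenes had 3 reads in all on day 16 and none on day 9. The part of these tissues in the results was not tested.

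The most abundant unigenes mostly have no name. Of the 10 with the highest RPKM on day 16, only TC24109 carried one, and on day 9 only TC24109 and TC13222 did. TC20807 had 1072, 1121, 3174, 32730 and 124345 reads at the 5 ages, a log2 ratio of 4.70 (4.65 to 4.75), and was second by RPKM on day 16. TC12373 had 37075 reads on day 16, against 139 on day 9, a log2 ratio of 7.47 (7.23 to 7.72). TC22404 and TC12375 went down with the jelly proteins, with log2 ratios of -1.29 and -1.93. TC12344 and TC12346, also among the 10 on both days, differed by 0.48 each, under the threshold. At this level counting error is small, and only replicate pools could show the spread between pools.

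By level, 111 unigenes had an RPKM of at least 500 on day 16, against 135 on day 9. The number with an RPKM of 10 to under 500 was 9366 on day 16, against 9356 on day 9. There were 61 unigenes that left the upper class for the middle one and 36 that entered it from there. Unigenes read on 1 day alone were rare in number of reads: 1885 were read on day 16 alone, with at most 74 reads, and 955 on day 9 alone, with at most 11. Only 3 and 1 of them were called, and the larger number of unique reads on day 16 would itself give more such unigenes. If an assumed coefficient of variation of 0.2 between pools is put into edgeR's exact test, 70 of the 291 calls stay (0.369% of all unigenes) and 24 of the 274 (0.127%), among the named unigenes TC14476, TC13781, TC14308, TC12355 and TC20544 on the higher side and TC12751, TC14541, DB739842 and TC16133 on the lower side, and no ribosome pathway unigene does.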

How the data were processed

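The RNA of HGs was sequenced in 1 pooled library per age by Illumina HiSeq, and the day 16 and day 9 libraries are compared here. Per the paper's methods, the authors filtered out reads of poor quality and mapped the others with SOAP2 (version not given in the sources used here) to the honey bee unigenes of the DFCI Gene Index. Deposited by the authors were a count of unique reads for each unigene, an RPKM computed from that count and a coverage (the fraction of the unigene under unique reads). The deposited annotation gives a best match for 7628 unigenes, and 3963 of them had a usable name. Other names come from the paper. No genome coordinates were used, because reads were matched to unigenes.

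For each of the 18950 unigenes read in either library, the 2 counts were compared by the test of Audic and Claverie, with both tails and the adjustment of Benjamini and Hochberg. The thresholds, an FDR up to 0.001 and a log2 ratio of 1 or more in size, are the study's, and the test was chosen here. Python 3.11.15, scipy 1.17.1, R 4.3.3 and edgeR 4.0.16 were used. The test and the intervals were tested on simulated data. Up to 3 reads could underlie a count of 0. Counting error is all that intervals and floors reflect, PCR copies not being independent molecules.

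Alternatives were TMM and median-of-ratios scaling, a total without the most abundant unigenes, Fisher's exact test, edgeR's exact test with an assumed coefficient of variation of 0.2 or 0.4, a minimum of 10 reads and a log2 ratio of 2. The 29 lists are search words for annotation names. Medians use RPKM plus 0.1 and members with 10 reads or more. The members and lists were chosen with earlier results of these data known. The text draws its unigenes from those the paper names, the 15 highest and 15 lowest called ratios of named unigenes (40 reads or more), the 10 highest RPKM of each library, the called and the 3 most read members of each list, and called unigenes unread in 1 library.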

Additional observations from a re-analysis of the deposited data

How the results depend on the processing

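No paired analysis was possible because each age has 1 library, and for the same reason no library could be left out. Beside 291 higher and 274 lower calls, an absolute log2 ratio of at least 2 left 111 and 51. With edgeR's exact test and an assumed coefficient of variation of 0.2 between pools the counts were 70 and 24, and with 0.4 they were 2 and 0, where 188 higher and 100 lower unigenes had an unadjusted p under 0.05 and a 2-fold difference. TMM scaling gave 334 and 248, median-of-ratios scaling 313 and 250, a total without the most abundant unigenes 280 and 285, Fisher's exact test 292 and 269, and a minimum of 10 reads 295 and 284. TMM factors moved every log2 ratio by 0.07. With the total without the most abundant unigenes that are not royal jelly proteins, the royal jelly protein share was 8.15% on day 16, against 15.9% on day 9. Of 135 called named unigenes with a ratio, 128 kept their call with TMM scaling and 28 with an assumed coefficient of variation of 0.2, and 4 more were called with TMM. The number of sugar enzyme calls was 4 with TMM. Without the minimum of reads, the list median turned to 0.20 from -0.17 for the secretory pathway and to 0.35 from -0.14 for ubiquitin and the proteasome, and was 1.29 beside 0.34 for serine proteases and -0.23 beside -0.51 for ribosome biogenesis. With TMM it turned to 0.02 from -0.05 for neuron markers and to 0.07 from -0.003 for the R group. A pseudocount of 1 turned no list median. The spread between pools of bees is unknown, and it limits every call here.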
